A study of Mus musculus with 18 samples.

Results

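Riboflavin, thiamine, folate, biotin and ascorbate cross cell membranes on dedicated carriers, and 7 genes of such carriers were followed here across brain, retina and choroid: Slc52a3, Slc52a2, Slc19a3, Slc19a2, Slc46a1, Slc5a6 and Slc23a2. They were taken by gene symbol from the 3 tissue tables and make up 7 of the 14411 genes analysed in at least 1 tissue. The brain and retina analyses held all 7. The choroid analysis held 4 (Slc52a3, Slc19a2, Slc5a6 and Slc23a2), and Slc52a2, Slc19a3 and Slc46a1 were not analysed in choroid.

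The 6 groups were Choroid Positive, Choroid Input, Retina Positive, Retina Input, Brain Positive and Brain Input, with 3 libraries each, called biological replicates in the labels. Every mouse carried Cdh5(PAC)-cre/ERT2+ and NuTRAP+ and was induced with tamoxifen (Tam). Cdh5(PAC)-cre/ERT2 encodes a recombinase that tamoxifen activates, under control of the VE-cadherin (Cdh5) promoter. NuTRAP tags ribosomes with GFP in cells where recombination has taken place. Translating ribosome affinity purification (TRAP) used an antibody to GFP to pull down tagged ribosomes. The Positive fraction is the RNA that came down with them, and the Input is RNA of the same homogenate saved before the pull-down. The sources used here give no age, sex, tamoxifen dose or number of animals behind a library, and there was no library from mice without the recombinase. The p-values therefore measure the spread between these libraries, which may be partly technical. A level in a Positive fraction is RNA on pulled-down ribosomes, and in an Input fewer cells of a type cannot be told apart from less RNA per cell.

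Endothelial cells of brain and retina are joined by tight junctions, so water-soluble vitamins reach neural tissue largely through carriers in the vessel wall or in the choroid plexus and retinal pigment epithelium. Choroidal capillaries are fenestrated, and the barrier there lies in the retinal pigment epithelium. Riboflavin becomes the flavin cofactors, thiamine its diphosphate, folate the carrier of single-carbon units, biotin the prosthetic group of carboxylases, and ascorbate a reductant and a cofactor of hydroxylases.

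Summed over the listed genes, the libraries held 31111437 to 40112343 estimated counts in Brain Positive and 28128866 to 43219831 in Brain Input. Retina Positive held 12325658 to 26069649 and Retina Input 20915469 to 36157140, whereas Choroid Positive held 713733 to 2717264 and Choroid Input 2018126 to 10031274. All 10 endothelial markers (Cdh5, Pecam1, Cldn5 and 7 others) rose in the Positive fraction of each tissue. Their summed level was 11760 to 13210 CPM (counts scaled to library size) in Choroid Positive and 1346 to 2133 in Choroid Input. It was 2194, 2329 and 4353 CPM in the Retina Positive libraries and 44.9 to 56.8 CPM in Retina Input, so Retina Positive 3 stood apart from the other Retina Positive libraries. It was 4662 to 5179 CPM in Brain Positive and 139.9 to 167.1 CPM in Brain Input. Brain Positive also held more of all 6 fibroblast markers, at a summed 1551 to 2334 CPM, against 124.5 to 135.4 CPM in Brain Input. Of the 8 retinal pigment epithelium markers analysed in choroid all fell in the Positive fraction, to 1104 to 1746 CPM, against 15430 to 23810 CPM in Choroid Input. In retina, photoreceptor markers summed to 29660 to 49380 CPM in Retina Positive and 33990 to 42320 CPM in Retina Input, and neuron markers to 4799 to 6439 CPM in Retina Positive and 5973 to 6491 CPM in Retina Input. Of these lists 3 of 8 photoreceptor and 5 of 8 neuron markers fell and none rose, and Retina Positive held far more photoreceptor than endothelial marker RNA. The part of these other cell types in the values below was not tested. By the tests described below, 38.3% of all genes rose and 39.7% fell in brain. The shares were 15.3% and 10.8% in retina, and 16.3% and 20.2% in choroid. In choroid 4439 of the 7569 genes were listed through the Input alone, by a rule given below. Which fraction listed the markers was not examined, so their falls in choroid are no independent evidence of a direction.

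Levels are normalised CPM within a tissue unless said otherwise, and tests are edgeR quasi-likelihood tests with Benjamini-Hochberg adjustment over all genes of the comparison, called at an adjusted p under 0.05. The main tests took the libraries as unpaired, although a Positive and an Input of the same number come from one homogenate. Fold changes are given as log2 values ± SE. In brain, 5 of the 7 transporters rose in the Positive fraction and 1 fell, in a comparison where 38.3% of all genes rose and 39.7% fell. In retina, 3 of 7 rose and 2 fell, where 15.3% of genes rose and 10.8% fell. In choroid, 2 of 4 rose and 2 fell, where 16.3% of genes rose and 20.2% fell. The median log2 fold change of the transporters was 1.28 in brain, -0.15 in retina and -0.29 in choroid, against -0.02, -0.03 and -0.01 over all genes of those comparisons. Per the file headers a gene was listed when it had at least 50 raw counts in every library of at least 1 fraction. Slc52a3 and Slc19a3 in retina and Slc52a3 in choroid met this through the Positive fraction alone, and Slc19a2 and Slc5a6 in choroid through the Input alone, so these 5 entries were listed through the fraction in which they were high. Their fold changes, and the differences between tissues that use them, are given as values of listed genes and are no independent evidence of a direction. The other 13 entries met it in both fractions.

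**Figure D1:**
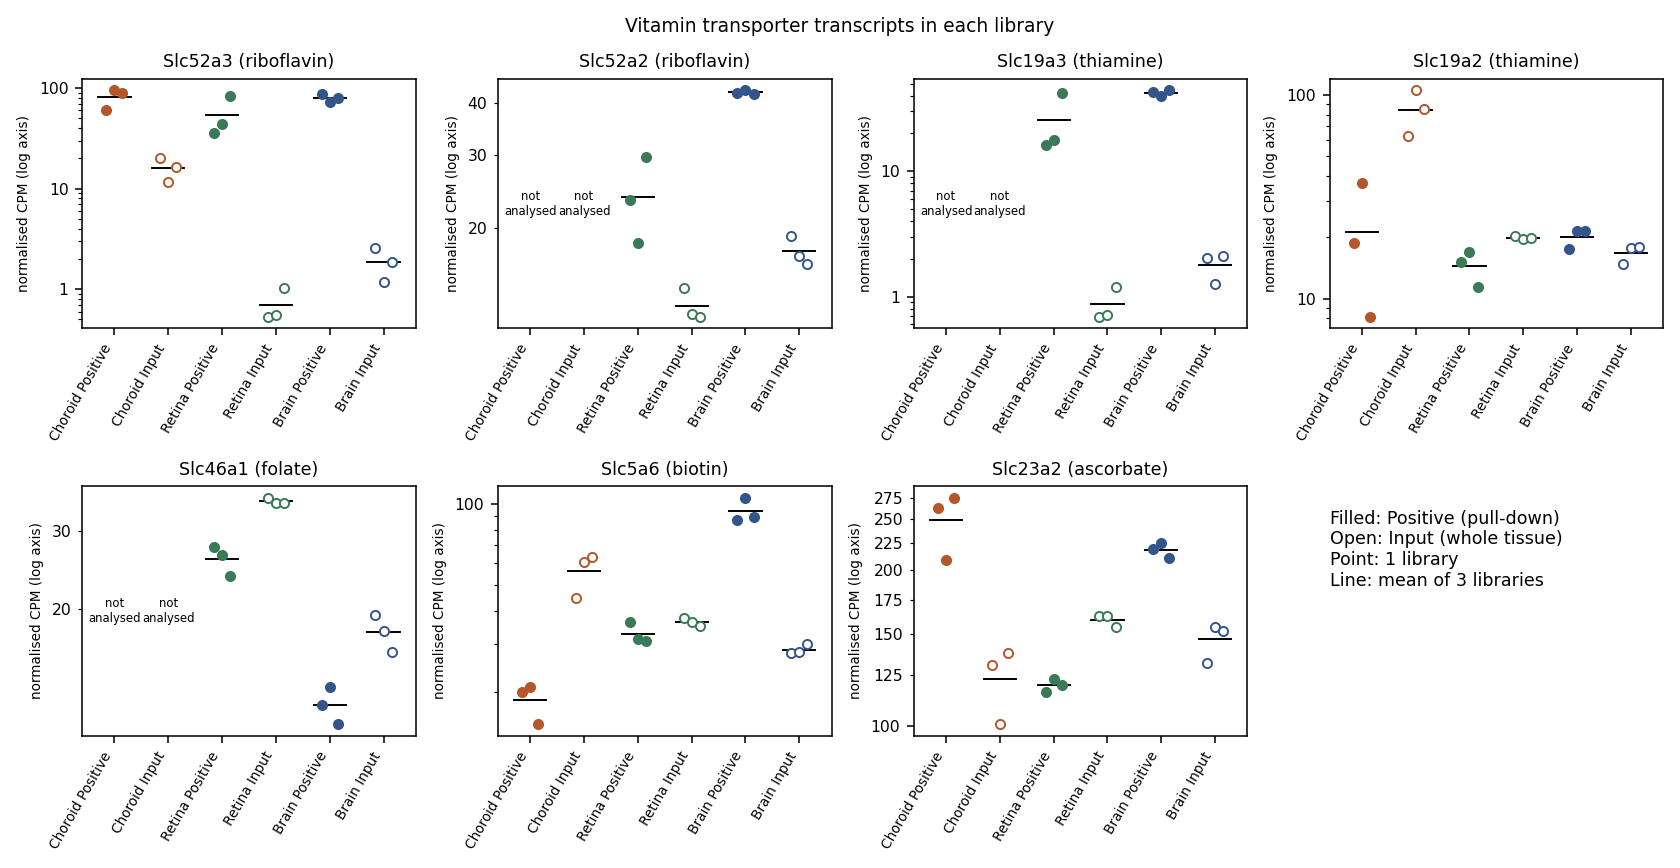
Normalised CPM within each tissue (log axis) of the 7 transporters in every library, with filled points for Positive, open points for Input and a line at the mean of 3 libraries. Slc52a3 and Slc19a3 have all Positive libraries far above all Input libraries, whereas Slc19a2 and Slc5a6 in choroid have the Positive libraries below the Input libraries.

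Slc52a3 encodes a plasma membrane riboflavin carrier. In the files it lies on chromosome 2 at 151996511 to 152009258 (mm10, plus strand, Entrez 69698). It was one of the genes with the largest enrichment in the brain pull-down, place 16 of 13957 genes by log2 fold change. Brain Positive held 87.6, 72.4 and 80.3 CPM, against 2.56, 1.17 and 1.89 CPM in Brain Input. Retina Positive held 35.9, 43.5 and 83.9 CPM, against 0.529, 0.549 and 1.03 CPM in Retina Input. Choroid Positive held 61.1, 95.4 and 90.5 CPM, against 20.2, 11.8 and 16.4 CPM in Choroid Input. In all 3 tissues every Positive library lay above every Input library, and the Choroid Input libraries were well above the Inputs of the neural tissues.

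The log2 fold change of Slc52a3 was 5.46 ± 0.198 in brain, which is 44.05-fold (adjusted p = 4.93e-09). In retina it was 6.34 ± 0.434 (80.9-fold, adjusted p = 6.75e-05), and in choroid 2.32 ± 0.323 (4.98-fold, adjusted p = 0.000147). The Retina Input libraries held 20.0, 16.0 and 21.9 estimated counts of Slc52a3, so the retina fold rests on few counts. The endothelial markers had a median log2 fold change of 5.24 in brain, 6.41 in retina and 2.86 in choroid. Slc52a3 lay close to the marker median in brain and retina and lower in choroid, and its distance from the median was not tested. The fitted difference in enrichment was -3.93 ± 0.516 for choroid minus retina (adjusted p = 7.6e-05) and -2.84 ± 0.385 for choroid minus brain (adjusted p = 3.68e-05). Slc52a3 was listed through the Positive fraction alone in choroid and in retina, which limits both values. For retina minus brain the difference was 0.95 with a 95% interval of -0.29 to 2.18 (adjusted p = 0.187). With the replicate number as a block, which pairs fractions of one homogenate, that difference was 0.81 (adjusted p = 0.029).

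The Positive fractions themselves did not separate for Slc52a3 in the way the enrichments did. Choroid Positive over Brain Positive gave a log2 difference of 0.05 with a 95% interval of -0.50 to 0.59 (adjusted p = 0.886). Choroid Positive over Retina Positive gave 0.51, interval -0.18 to 1.20 (adjusted p = 0.19), and Retina Positive over Brain Positive gave -0.50, interval -1.10 to 0.11 (adjusted p = 0.124). Retina Positive 3, the library with the high endothelial marker sum, had 93.96 CPM of Slc52a3 when all 18 libraries were scaled together, against 81.2 to 98.5 CPM in Brain Positive. Without it, Choroid over Retina was 0.93 (adjusted p = 0.0183) and Retina over Brain -0.98 (adjusted p = 0.000328). The Inputs differed for Slc52a3, with Choroid over Retina at 4.44 ± 0.408 (adjusted p = 3.62e-07), Choroid over Brain at 2.89 ± 0.294 (adjusted p = 7.32e-07) and Retina over Brain at -1.44 ± 0.487 (adjusted p = 0.0169). The last of these was not called without Retina Input 1 (adjusted p = 0.0507), Retina Input 2 (0.0572) or Brain Input 1 (0.0595). Choroid Input also held the most endothelial marker RNA of the Inputs, 1346 to 2133 CPM, against at most 56.8 CPM in Retina Input and 167.1 CPM in Brain Input.

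Slc52a2 encodes another riboflavin carrier of the same family, and lies on chromosome 15 at 76538943 to 76542130 (plus strand, Entrez 52710). It was present in whole tissue and rose moderately in the pull-down. Brain Positive held 42.2, 42.9 and 42.1 CPM, against 19.1, 17.1 and 16.4 CPM in Brain Input. Retina Positive held 23.3, 18.3 and 29.6 CPM, against 14.3, 12.4 and 12.2 CPM in Retina Input. The fractions did not overlap in either tissue, although the Retina Positive libraries were spread more widely than the brain ones. The log2 fold change was 1.27 ± 0.084 in brain (adjusted p = 3.59e-07) and 0.88 ± 0.184 in retina (adjusted p = 0.0101). The retina call was lost without Retina Input 2 (adjusted p = 0.0522). The difference between these enrichments, retina minus brain, was -0.35 with an interval of -0.80 to 0.10 (adjusted p = 0.18). Without Retina Positive 3 it was -0.45 (adjusted p = 0.0322). Slc52a2 was lower in Retina Positive than in Brain Positive by a log2 difference of -0.77 ± 0.145 (adjusted p = 0.000355) and lower in Retina Input than in Brain Input (-0.42 ± 0.147, adjusted p = 0.0195). The Input difference was not called without Retina Input 2 (adjusted p = 0.0607) or Brain Input 1 (0.0948).

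Set per kilobase of transcript, the 2 riboflavin carriers changed places between the fractions. The ratio of Slc52a3 to Slc52a2 was 2.10, 1.71 and 1.93 in the Brain Positive libraries, against 0.136, 0.0690 and 0.117 in the Brain Input libraries. It was 1.56, 2.40 and 2.87 in Retina Positive, against 0.0374, 0.0448 and 0.0854 in Retina Input. Slc52a3 was thus the more abundant of the pair in every Positive library and the less abundant in every Input library of these tissues.

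Slc19a3 encodes a thiamine carrier, thiamine transporter THTR2 in human nomenclature, and lies on chromosome 1 at 83012523 to 83038448 (minus strand, Entrez 80721). Like Slc52a3, it was near the bottom of the 7 in whole brain and retina and rose strongly in the pull-down. Brain Positive held 42.9, 39.6 and 44.3 CPM, against 2.02, 1.27 and 2.10 CPM in Brain Input. Retina Positive held 16.3, 17.8 and 42.2 CPM, against 0.687, 0.716 and 1.20 CPM in Retina Input. The fractions were far apart in both tissues, and replicate 3 was the highest library of either retina fraction. The log2 fold change was 4.56 ± 0.162 in brain (23.6-fold, adjusted p = 4.31e-09) and 4.91 ± 0.466 in retina (30.0-fold, adjusted p = 0.000225). The retina fold rests on 26.0, 20.9 and 25.6 estimated counts in Retina Input, and Slc19a3 was listed there through the Positive fraction alone.

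The enrichment of Slc19a3 was not shown to differ between retina and brain. Retina minus brain was 0.41 with an interval of -0.77 to 1.59 (adjusted p = 0.554), and -0.09 without Retina Positive 3. Retina Positive over Brain Positive gave -0.67, interval -1.33 to 0.00 (adjusted p = 0.0648). Without Retina Positive 3 this difference was -1.27 (adjusted p = 2.61e-05). It was also called with DESeq2 size factors (-0.77, adjusted p = 0.03), by the DESeq2 Wald test (-0.78, adjusted p = 0.0159) and without Brain Input 2 (-0.69, adjusted p = 0.0453), so the call depended on the method as well as on single libraries. In the Inputs Slc19a3 was lower in retina than in brain (-1.08 ± 0.448, adjusted p = 0.0439), and this call was lost on leaving out any of 6 single libraries (adjusted p up to 0.12).

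Slc19a2 encodes a thiamine carrier of the same family, THTR1 in human nomenclature, and lies on chromosome 1 at 164249046 to 164265385 (plus strand, Entrez 116914). Unlike Slc19a3, it had no called change in the pull-down of brain or retina in the main fit. In choroid, where Slc19a3 was not analysed, it was lower in the pull-down and was listed through the Input alone. The Choroid Positive libraries held 51.0, 23.1 and 14.0 estimated counts of it. Brain Positive held 17.6, 21.4 and 21.4 CPM, against 14.8, 17.7 and 17.9 CPM in Brain Input. Retina Positive held 15.2, 17.0 and 11.4 CPM, against 20.2, 19.7 and 19.8 CPM in Retina Input. Choroid Positive held 18.7, 36.8 and 8.12 CPM, against 62.7, 105.5 and 84.8 CPM in Choroid Input. The brain fractions overlapped, the Retina Positive libraries all lay below the Retina Input libraries, and the Choroid Input libraries were the highest of all groups.

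Slc19a2 had a log2 fold change of -2.14 ± 0.44 in choroid (adjusted p = 0.00228). In retina it was -0.46 ± 0.162 (adjusted p = 0.0704), and without Retina Positive 2 it was -0.58 (adjusted p = 0.0396). By the DESeq2 Wald test the retina value was -0.45 (adjusted p = 0.0496). In brain it was 0.26 ± 0.117 (adjusted p = 0.0638), and 0.26 in the fit blocked by replicate number (adjusted p = 0.0216). The brain value also passed by the DESeq2 Wald test (adjusted p = 0.0491), with the authors' scaling factors (0.0307) and without Brain Positive 1 (0.0166). Whether Slc19a2 was called in brain or retina thus depended on the method. The differences between tissues in this enrichment passed the threshold, with the limit that the choroid entry was listed through the Input alone. Choroid minus retina was -1.64 ± 0.486 (adjusted p = 0.0197), choroid minus brain -2.14 ± 0.442 (adjusted p = 0.00123) and retina minus brain -0.69 ± 0.204 (adjusted p = 0.0144). Retina minus brain was not called without Retina Input 1 (adjusted p = 0.057) or Brain Positive 2 (0.0694), nor in the fit of all 18 libraries (0.119).

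Choroid Input stood above the other Inputs for Slc19a2. Choroid Input over Retina Input was 1.92 ± 0.319 (adjusted p = 0.000106) and Choroid Input over Brain Input 2.03 ± 0.285 (adjusted p = 1.88e-05). Choroid Positive over Retina Positive was 0.28, interval -0.52 to 1.09 (adjusted p = 0.533), and Choroid Positive over Brain Positive was -0.11, interval -0.85 to 0.64 (adjusted p = 0.816). Retina Positive was below Brain Positive (-0.44 ± 0.146, adjusted p = 0.0158), a call lost without Retina Positive 3 (0.0625), Brain Positive 2 (0.0552) or Brain Positive 3 (0.0557). Retina Input over Brain Input was 0.25, interval -0.06 to 0.56 (adjusted p = 0.126). Beside these values, the retinal pigment epithelium markers summed to 15430 to 23810 CPM in Choroid Input, against 597.2 to 745.2 CPM in Retina Input and 46.4 to 48.8 CPM in Brain Input. These sums cover 8, 7 and 5 of the 9 markers in that order, so they are not of the same genes. The melanocyte, fibroblast, microglia, epithelial, choroid plexus and endothelial marker sums were also highest in Choroid Input. Those of neurons, photoreceptors, mural cells and the other glia were not. The part of any of these cell types in the level of Slc19a2 was not tested.

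Per kilobase, the thiamine carriers parted in the same manner as the riboflavin carriers. The ratio of Slc19a3 to Slc19a2 was 2.93, 2.22 and 2.48 in Brain Positive, against 0.165, 0.0862 and 0.141 in Brain Input. It was 1.29, 1.26 and 4.45 in Retina Positive, against 0.0408, 0.0438 and 0.0729 in Retina Input. Every Positive library had more Slc19a3 and every Input library more Slc19a2, with Retina Positive 3 well above the others.

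The bases upstream of these thiamine carriers are shown because the genes belong to one family and moved differently in the pull-down. They are the 250 bases before the RefSeq start in GRCm38.p6, the assembly of mm10, on the gene's strand. Capitals mark ATCAAAG, a core of the TCF/LEF factors of Wnt signalling, and GGAA, the core of the ETS factors, each searched on both strands. Slc19a3 is taken from chr1:83038449-83038698 (minus strand) and Slc19a2 from chr1:164248796-164249045 (plus strand).
Slc19a3: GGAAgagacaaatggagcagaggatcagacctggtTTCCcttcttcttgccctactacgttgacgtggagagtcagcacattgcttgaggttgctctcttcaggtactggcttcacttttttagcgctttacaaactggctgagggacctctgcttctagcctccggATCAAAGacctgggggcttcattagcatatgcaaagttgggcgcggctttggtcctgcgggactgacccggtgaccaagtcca
Slc19a2: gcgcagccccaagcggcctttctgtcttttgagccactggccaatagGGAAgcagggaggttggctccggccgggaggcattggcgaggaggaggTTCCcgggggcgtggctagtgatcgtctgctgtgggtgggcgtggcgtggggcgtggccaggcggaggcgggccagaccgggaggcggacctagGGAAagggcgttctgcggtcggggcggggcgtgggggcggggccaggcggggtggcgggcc
The Slc19a3 stretch had a GC content of 52.8%, 1 match to the TCF/LEF core, which begins 83 bases before the start, and 2 to the ETS core. The Slc19a2 stretch had a GC content of 73.2%, no match to the TCF/LEF core and 3 to the ETS core. Of 32851 mouse promoters of this length, 3.21% held the TCF/LEF core and 93.4% the ETS core. These motifs were chosen with the sequences in view, and a match describes letters and not a bound site. The promoter table held 5 of the 7 genes, and Slc52a3 and Slc52a2 were not among them.

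Slc46a1 encodes the proton-coupled folate transporter, and lies on chromosome 11 at 78465701 to 78471945 (plus strand, Entrez 52466). It was the one transporter that fell in the pull-down of both neural tissues. Brain Positive held 12.1, 13.3 and 10.9 CPM, against 19.4, 17.8 and 16.0 CPM in Brain Input. Retina Positive held 27.6, 26.6 and 23.8 CPM, against 35.8, 34.7 and 34.8 CPM in Retina Input. Positive and Input libraries did not overlap in either tissue, and all retina libraries were above all brain libraries. The log2 fold change was -0.55 ± 0.116 in brain (adjusted p = 0.00157) and -0.44 ± 0.1 in retina (adjusted p = 0.0145). The retina call was lost without Retina Input 1 (adjusted p = 0.0688) or Retina Input 2 (0.0622). Retina minus brain, the difference between the enrichments, was 0.15 with an interval of -0.17 to 0.46 (adjusted p = 0.42). Retina Positive was above Brain Positive by 1.15 ± 0.105 (adjusted p = 6.9e-07) and Retina Input above Brain Input by a log2 difference of 1.00 ± 0.102 (adjusted p = 1.61e-06).

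Slc5a6 encodes the sodium-dependent multivitamin transporter, which carries biotin, pantothenate and lipoate, and lies on chromosome 5 at 31036036 to 31048924 (minus strand, Entrez 330064). It rose in the brain pull-down, had no called change in retina and was lower in the choroid pull-down, where it was listed through the Input alone. Brain Positive held 87.05, 105.3 and 89.0 CPM, against 27.8, 28.1 and 30.1 CPM in Brain Input. Retina Positive held 36.2, 31.3 and 30.9 CPM, against 37.6, 36.2 and 35.2 CPM in Retina Input. Choroid Positive held 20.0, 20.8 and 15.1 CPM, against 44.5, 60.8 and 63.4 CPM in Choroid Input. The fractions were separate in brain and choroid, in opposite order, and overlapped in retina. The Choroid Positive values rest on 54.6, 13.1 and 26.1 estimated counts, so they carry more counting error than the other Slc5a6 values.

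For Slc5a6 the log2 fold change was 1.71 ± 0.087 in brain (3.27-fold, adjusted p = 5.71e-08). In retina it was -0.15, interval -0.38 to 0.08 (adjusted p = 0.322), and in choroid -1.61 ± 0.321 (adjusted p = 0.00184). The differences between these enrichments passed the threshold, those with choroid under the same limit of listing. Choroid minus retina was -1.39 ± 0.287 (adjusted p = 0.00222), choroid minus brain -3.01 ± 0.258 (adjusted p = 5.35e-07) and retina minus brain -1.82 ± 0.128 (adjusted p = 8.47e-07). The same order stood in the Positive fractions, with Choroid over Retina at -0.91 ± 0.218 (adjusted p = 0.00251), Choroid over Brain at -2.31 ± 0.199 (adjusted p = 4.03e-07) and Retina over Brain at -1.47 ± 0.091 (adjusted p = 2.21e-08). Brain Positive was thus the group with the most Slc5a6 and Choroid Positive the group with the least.

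The Inputs ran the other way for Slc5a6 and differed less. Choroid Input was above Brain Input by 0.70 ± 0.163 (adjusted p = 0.0016) and Retina Input above Brain Input by 0.35 ± 0.09 (adjusted p = 0.00324). The difference of Retina Input from Brain Input was not called without Retina Input 1 (adjusted p = 0.0764). Choroid Input over Retina Input was 0.48 ± 0.186 (adjusted p = 0.0344), which was not called in the fit blocked by replicate number (0.0554) or without any of 5 single libraries (up to 0.16). By the GENCODE annotation, 145 exonic bases of Slc5a6, or 3.8%, are shared with Atraid on the opposite strand. The sources used here do not say whether the counting used strand, so a small part of the Slc5a6 reads may belong to Atraid.

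Slc23a2 encodes the sodium-dependent ascorbate carrier SVCT2, and lies on chromosome 2 at 132052496 to 132145108 (minus strand, Entrez 54338). It was abundant in every group and changed by less than Slc52a3 in each tissue. Brain Positive held 218.9, 225.1 and 210.7 CPM, against 132.1, 155.3 and 152.6 CPM in Brain Input. Retina Positive held 116.2, 122.9 and 119.7 CPM, against 162.8, 162.5 and 154.8 CPM in Retina Input. Choroid Positive held 263.0, 209.2 and 275.4 CPM, against 130.7, 100.6 and 138.2 CPM in Choroid Input. The fractions were separate in all 3 tissues, with the Positive libraries on top in choroid and brain and at the bottom in retina.

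Slc23a2 had a log2 fold change of 1.02 ± 0.21 in choroid (2.03-fold, adjusted p = 0.00228), -0.42 ± 0.069 in retina (adjusted p = 0.00325) and 0.57 ± 0.075 in brain (adjusted p = 5.96e-05). The enrichment in choroid was above that in retina by 1.52 ± 0.221 (adjusted p = 0.000162) and above that in brain by 0.77 ± 0.213 (adjusted p = 0.00888). The enrichment in retina was below that in brain by a log2 difference of -0.95 ± 0.102 (adjusted p = 1.79e-05). Choroid Positive exceeded Retina Positive by 1.00 ± 0.158 (adjusted p = 9.16e-05), and Retina Positive was below Brain Positive (-0.82 ± 0.073, adjusted p = 5.31e-07). Choroid Positive over Brain Positive was 0.24, interval -0.08 to 0.57 (adjusted p = 0.187). Choroid Input was lower than Retina Input (-0.52 ± 0.155, adjusted p = 0.00847) and lower than Brain Input (-0.52 ± 0.15, adjusted p = 0.00693), whereas Retina Input over Brain Input was 0.13, interval -0.02 to 0.29 (adjusted p = 0.108).

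**Figure D2:**
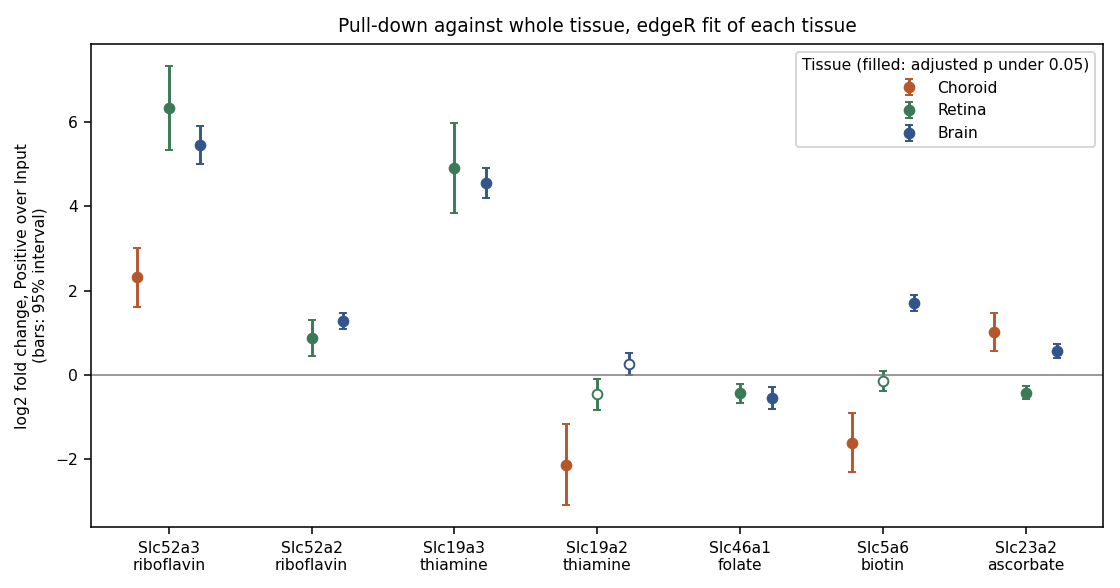
Log2 fold change of Positive over Input for each transporter in choroid, retina and brain, with 95% intervals from the edgeR fit and filled points where the adjusted p was under 0.05. Slc52a3 and Slc19a3 stand above 0 in brain, where both fractions met the listing rule. They also do in retina, and Slc52a3 in choroid, where they were listed through the Positive fraction alone. Slc5a6 stands at -1.61 in choroid, where it was listed through the Input alone, -0.15 in retina and 1.71 in brain.

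Counted over the comparisons between tissues, the 4 transporters tested were called in enrichment between choroid and brain, 1 upward and 3 downward, where 22.4% of genes were higher and 25.7% lower. They were called between choroid and retina as well, 1 upward and 3 downward, where 9.49% of genes were higher and 22.3% lower. The 3 downward genes (Slc52a3, Slc19a2 and Slc5a6) are those listed in choroid through a single fraction, so nothing is read from these counts. Between retina and brain, 3 of 7 differed, all downward, where 28.9% of genes were higher and 20.0% lower. Of the Positive fractions, Choroid over Brain called 0 higher and 1 of 4 lower (28.3% and 26.4% of genes), and Choroid over Retina called 1 of 4 higher and 1 lower (30.5% and 29.7%). Retina over Brain called 1 of 7 higher and 4 lower (39.2% and 36.4%). Of the Inputs, Choroid over Brain called 3 of 4 higher and 1 lower (33.9% and 33.4%), Choroid over Retina 3 of 4 higher and 1 lower (35.5% and 32.3%), and Retina over Brain 2 of 7 higher and 3 lower (37.8% and 37.8%). The 3 kinds of comparison between a pair of tissues share the same 12 libraries and are not independent of each other.

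**Figure D3:**
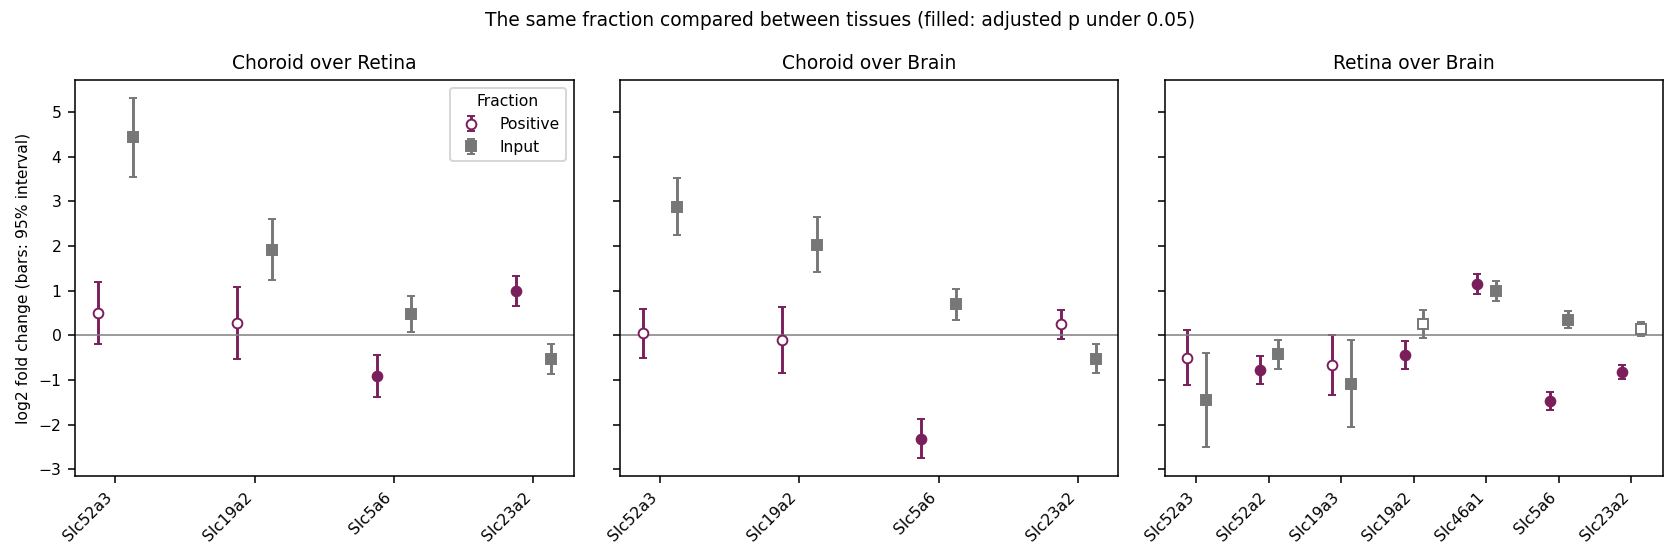
Log2 differences between tissues within the Positive and within the Input fraction, with 95% intervals and filled symbols where the adjusted p was under 0.05. For Slc52a3 and Slc19a2 the Choroid Input stands above the other Inputs (1.92 to 4.44), while the Positive differences of choroid from retina and brain have intervals that include 0. For Retina over Brain the Positive difference of Slc19a2 has an interval of -0.755 to -0.121.

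Endothelial marker RNA made up different shares of the 3 Positive fractions, so each transporter was also set against it. Per 1000 CPM of the 10 endothelial markers, Slc52a3 had 4.75, 8.11 and 6.85 CPM in Choroid Positive, against 16.4, 18.7 and 19.3 in Retina Positive and 16.9, 14.7 and 17.2 in Brain Positive. On this scale the choroid libraries lay below all others. Slc19a3 had 7.43, 7.66 and 9.70 in Retina Positive, against 8.28, 8.04 and 9.49 in Brain Positive, with overlapping ranges. The spread that Retina Positive 3 gave to the CPM of Slc52a3 and Slc19a3 was narrower here. For the transporters that were not enriched in retina the opposite held, as Slc46a1 had 12.6, 11.4 and 5.46 in Retina Positive, with replicate 3 lowest, against 2.33, 2.70 and 2.34 in Brain Positive. Slc5a6 had 1.55, 1.77 and 1.15 in Choroid Positive, against 16.5, 13.4 and 7.10 in Retina Positive and 16.8, 21.4 and 19.1 in Brain Positive. The choroid libraries were again the lowest, by a wide margin.

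When the libraries of the Positive comparisons were scaled to the endothelial marker sum instead of by TMM, a choice made after the data were seen, the choroid results of 3 genes changed. Slc52a3 was lower in Choroid Positive than in Retina Positive (-1.48, adjusted p = 0.000674) and than in Brain Positive (-1.35, adjusted p = 0.000271). Slc19a2 was lower than in Retina Positive (-1.81, adjusted p = 0.00181) and than in Brain Positive (-1.45, adjusted p = 0.0155). Slc23a2 turned from higher to lower against Retina Positive (-1.17, adjusted p = 0.0022) and was lower than in Brain Positive (-1.16, adjusted p = 3.49e-05). Between Retina Positive and Brain Positive, Slc46a1 alone of the 7 passed on this scale (1.99, adjusted p = 2.57e-07), a gene that fell in the pull-down of both tissues. Slc5a6 was -0.63 (adjusted p = 0.0771) and Slc52a3 0.15 (adjusted p = 0.69). Most statements on which vascular bed has more of a transporter therefore depend on this choice. Slc5a6 was lowest in Choroid Positive on both scales, and Slc46a1 was higher in Retina Positive than in Brain Positive on both. For Slc46a1, however, Retina Input was also above Brain Input (1.00 ± 0.102), and its enrichment difference was not called (0.15, adjusted p = 0.42). No statement on a vascular bed is therefore drawn from Slc46a1. The difference of Slc5a6 between Retina Positive and Brain Positive was called with TMM scaling only.

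**Figure D4:**
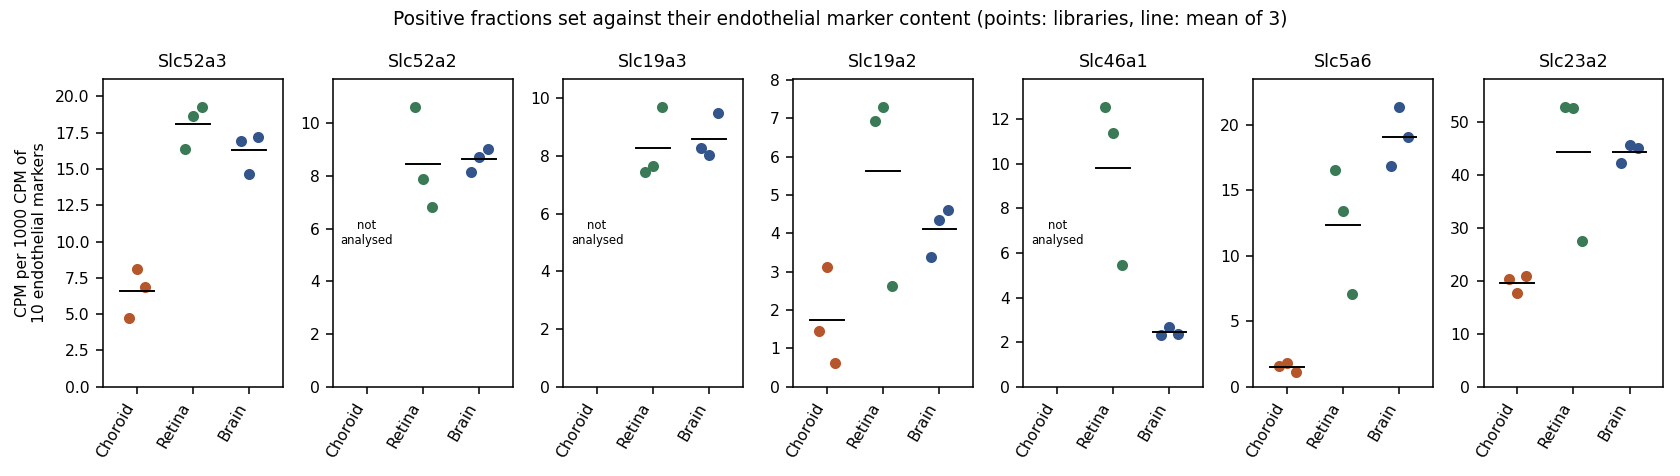
CPM of each transporter per 1000 CPM of 10 summed endothelial markers in the Positive libraries of choroid, retina and brain, with a line at the mean of 3 libraries. Slc52a3 averages 6.57 in choroid, 18.1 in retina and 16.3 in brain, and Slc5a6 averages 1.49, 12.3 and 19.1.

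The order of the 6 groups was read from levels scaled jointly over the 18 libraries. Slc52a3 ran from Brain Positive (90.5 ± 8.70 CPM, SD, n = 3 for this and the following) and Choroid Positive (88.5 ± 19.8) to Retina Positive (62.6 ± 27.5), then Choroid Input (17.1 ± 4.65), Brain Input (2.36 ± 0.885) and Retina Input (0.939 ± 0.368). The Positive fractions overlapped with their neighbours and each Input was separate from the next. Slc19a2 was highest in Choroid Input (89.2 ± 21.4), then Retina Input (26.7 ± 0.513), and its last 4 groups, from Brain Positive (22.8 ± 2.64) to Retina Positive (16.9 ± 3.74), overlapped with their neighbours. Slc5a6 was highest in Brain Positive (105.9 ± 10.9) and lowest in Choroid Positive (20.0 ± 3.25), each separate from its neighbour. Slc23a2 was highest in Choroid Positive (268.0 ± 38.6), overlapping with Brain Positive (246.6 ± 5.998), and lowest in Choroid Input (130.7 ± 23.0), overlapping with Retina Positive (139.0 ± 5.17). Of the genes analysed in 2 tissues, Slc52a2 and Slc19a3 were highest in Brain Positive (47.9 ± 0.407 and 47.8 ± 3.05) and lowest in Retina Input (17.4 ± 1.66 and 1.16 ± 0.375), and Slc46a1 was highest in Retina Input (47.1 ± 1.03) and lowest in Brain Positive (13.7 ± 1.23).

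Per kilobase of transcript, the ascorbate carrier Slc23a2 and the riboflavin carrier Slc52a3 had the highest means in each Positive fraction. In Choroid Positive, Slc23a2 had 39.2 ± 5.53 and Slc52a3 30.8 ± 6.95 CPM per kilobase (SD, n = 3), well above Slc19a2 (5.93 ± 4.06) and Slc5a6 (5.42 ± 0.893). In Retina Positive, Slc52a3 had 20.4 ± 9.67, Slc23a2 18.8 ± 0.527 and Slc46a1 13.2 ± 0.995 CPM per kilobase, with Slc19a2 last at 4.07 ± 0.801. The SD of Slc52a3 covers the distance to the next genes there, and Slc23a2 and Slc46a1 were higher in Retina Input (25.2 ± 0.713 and 17.8 ± 0.296). In Brain Positive, Slc23a2 had 34.3 ± 1.14, Slc52a3 30.0 ± 2.86 and Slc5a6 27.3 ± 2.92 CPM per kilobase, and Slc19a2 was again last at 5.64 ± 0.627. Whole tissue had another order, since Slc19a3 and Slc52a3 were the lowest of the 7 in Brain Input (0.604 ± 0.154 and 0.701 ± 0.261 CPM per kilobase) and in Retina Input (0.292 ± 0.0972 and 0.263 ± 0.106).

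The genes whose log2 levels were most like each transporter over the 12 brain and retina libraries were read from 6219 genes at or above the median level, as a description. The libraries share tissues and fractions, and their part in this likeness was not tested. Slc52a3 was closest to Foxf2 (r = 0.998), Pecam1 (0.997) and Eltd1 (0.997), and Slc19a3 to Igfbp7 (0.998), Trim47 (0.997) and Hspa12b (0.997). Slc52a2 was closest to Necap2 (0.992), Tspan4 (0.992) and Gng11 (0.989). Slc46a1 was closest to Ift81 (0.990), Ddhd1 (0.988) and Gpr153 (0.987), and Slc5a6 to Smoc1 (0.983), Paics (0.979) and Insig2 (0.977). Slc19a2 had lower values, with Cldn25 (0.926), Ube2h (0.899) and Ei24 (0.862), as had Slc23a2 with Samd4b (0.927), Mmadhc (0.921) and Adra2a (0.917).

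Other genes of vitamin uptake and use were followed as 6 lists, whose counts stand against the shares over all genes: 38.3% rose and 39.7% fell in brain, 15.3% and 10.8% in retina, and 16.3% and 20.2% in choroid. In choroid 4439 of the 7569 genes were listed through the Input alone. Which fraction listed the genes of these lists was not examined, so their falls in choroid are no independent evidence of a direction. Among the other carriers and receptors of the plasma membrane, 4 of 7 analysed rose and 3 fell in Brain Positive, against 38.3% and 39.7% of all genes. Slc19a1, the reduced folate carrier, had a log2 fold change of 2.09 ± 0.1 (adjusted p = 3.78e-08), Tcn2, the cobalamin carrier protein transcobalamin, 2.63 ± 0.115 (adjusted p = 2.02e-08), and Cubn, an endocytic receptor, 2.74 ± 0.191 (adjusted p = 5.44e-07). Folr1, a folate receptor strong in choroid plexus, had -2.13 ± 0.237 (adjusted p = 1.77e-05), beside 9 choroid plexus markers, Folr1 among them, of which 7 fell. In Retina Positive 2 of 7 rose and 2 fell, with Cd320, the transcobalamin receptor, at 1.11 ± 0.189 (adjusted p = 0.00391), Tcn2 at 0.88 ± 0.194 (adjusted p = 0.0128), Slc19a1 at -0.46 ± 0.124 (adjusted p = 0.0288) and Folr1 at -0.34 ± 0.179 (adjusted p = 0.206). In Choroid Positive none of 6 rose and 4 fell, with Slc19a1 at -3.96 ± 0.519 (adjusted p = 9.16e-05) and Folr1 at -2.36 ± 0.64 (adjusted p = 0.0119). Of the folate carriers in brain, Slc19a1 rose while Slc46a1 and Folr1 fell.

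Of the 8 intracellular carriers, 2 rose and 3 fell in Brain Positive, no more than the 38.3% and 39.7% of all genes. There Slc25a32, the mitochondrial folate or flavin carrier, had 1.03 ± 0.13 (adjusted p = 4.2e-05) and Slc25a42, the mitochondrial coenzyme A carrier, -0.38 ± 0.099 (adjusted p = 0.00563). In retina 1 of 8 fell, which was Slc25a16 (-0.36 ± 0.099, adjusted p = 0.0319), and in choroid 2 of 5 fell, namely Slc25a16 (-1.14 ± 0.378, adjusted p = 0.0333) and Lmbrd1, a lysosomal cobalamin protein (-0.66 ± 0.211, adjusted p = 0.0277). Of the enzymes that make cofactors from riboflavin and thiamine, 3 of 6 rose and 1 fell in brain, 2 of 5 rose in retina and 1 of 3 rose in choroid. Rfk, riboflavin kinase, which makes flavin mononucleotide, rose in all 3, by 0.64 ± 0.203 in choroid (adjusted p = 0.0275), 0.83 ± 0.123 in retina (adjusted p = 0.00201) and 1.99 ± 0.079 in brain (adjusted p = 9.41e-09). Flad1, which makes flavin adenine dinucleotide from it, fell in brain (-0.54 ± 0.082, adjusted p = 0.000174), and was at -0.31 ± 0.131 in retina (adjusted p = 0.118). Enpp1, an ectoenzyme that hydrolyses nucleotides, rose in brain by 2.97 ± 0.143 (adjusted p = 4.08e-08).

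Of the folate cycle enzymes, 6 of 16 rose and 6 fell in brain, none of 15 passed in retina, and 1 of 4 fell in choroid. The brain counts are near the 38.3% and 39.7% over all genes. The brain extremes were Mthfs (1.25 ± 0.162, adjusted p = 5.3e-05) and the mitochondrial Aldh1l2 (-1.42 ± 0.234, adjusted p = 0.000292), with Fpgs, which adds glutamates to folate, at 0.92 ± 0.14 (adjusted p = 0.00016). The choroid member that fell was Aldh1l1 (-2.49 ± 0.379, adjusted p = 0.000277). Of the biotin and pantothenate enzymes, 7 of 16 rose and 3 fell in brain, 2 of 16 rose and 1 fell in retina, and 3 of 12 fell in choroid. Acacb, a biotin-dependent acetyl-CoA carboxylase, rose by 3.36 ± 0.373 in retina (adjusted p = 0.000486) and by 1.90 ± 0.108 in brain (adjusted p = 1.29e-07). Btd, which frees biotin for reuse, rose by 0.48 ± 0.133 in retina (adjusted p = 0.0315) and by 1.64 ± 0.09 in brain (adjusted p = 1.02e-07). Hlcs, which attaches biotin to carboxylases, was at 0.55 ± 0.279 in choroid (adjusted p = 0.146), 0.21 ± 0.139 in retina (adjusted p = 0.311) and rose in brain by 0.51 ± 0.09 (adjusted p = 0.000502). In choroid Pcx, pyruvate carboxylase, had -2.73 ± 0.399 (adjusted p = 0.000208) and Mccc1 -1.64 ± 0.317 (adjusted p = 0.0015).

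Of the genes that handle ascorbate and its oxidised form, 3 of 7 rose and 3 fell in brain, 1 of 6 rose and 2 fell in retina, and 1 of 3 fell in choroid. The brain counts are near the 38.3% and 39.7% over all genes, and those in retina stand beside 15.3% and 10.8%. Slc2a1, the glucose carrier GLUT1, which also takes up dehydroascorbate, rose by 3.05 ± 0.319 in retina (adjusted p = 0.000351) and by 4.44 ± 0.092 in brain (adjusted p = 2.03e-10). In choroid it was at 0.07 ± 0.231 (adjusted p = 0.836). The neuronal glucose carrier Slc2a3 fell in retina (-0.30 ± 0.091, adjusted p = 0.0437) and in brain (-1.30 ± 0.094, adjusted p = 7.45e-07). Gulo, the last enzyme of ascorbate synthesis, fell in retina (-1.50 ± 0.181, adjusted p = 0.000754), and Gsto1, a dehydroascorbate reductase, fell in choroid (-2.63 ± 0.405, adjusted p = 0.000299). The median log2 fold changes of the 6 lists ranged from -0.08 to 1.59 in brain, -0.22 to 0.14 in retina and -1.90 to 0.11 in choroid.

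**Figure D5:**
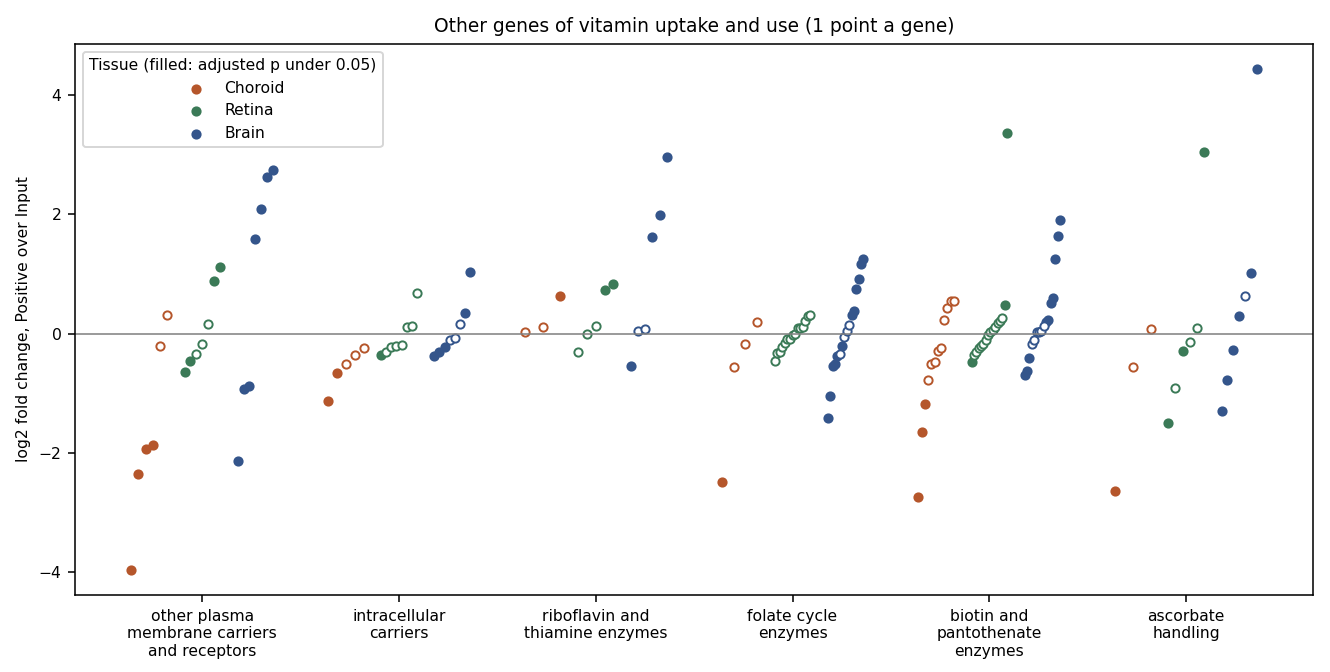
Log2 fold change of Positive over Input for the genes of 6 other lists of vitamin uptake and use, 1 point a gene, in choroid, retina and brain, filled where the adjusted p was under 0.05. Brain genes spread to both sides (Slc2a1 at 4.44, Folr1 at -2.13), most retina genes lie near 0, and the called choroid genes other than Rfk lie below 0. Most genes analysed in choroid were listed through the Input alone, so falls there are no independent evidence of a direction.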

How the data were processed

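RNA of Positive and Input fractions was sequenced in 18 libraries, 3 per group, with a directional kit per the labels. The authors deposited 1 table per tissue. Its raw values are estimated counts that the authors made per gene, to judge by the file headers and by their decimals. Its normalized values are on a log2 scale made by the authors, used here only for the authors' scaling factors. Per the submitters' processing notes, mm10 and DESeq were used. Aligner, counting program and use of strand: not given in the sources used here. Per the file headers a gene needed at least 50 raw counts in all libraries of 1 fraction.

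Counts were rounded and fitted per tissue (6 libraries) and per pair of tissues (12 libraries, genes of both tables) by the quasi-likelihood test of edgeR 4.0.16 with TMM scaling. A filter by filterByExpr (minimum count 10) took out no gene. Benjamini-Hochberg adjustment ran over all genes of a comparison. The tables were filtered separately by the authors, so levels compared across tissues were scaled here over genes of both tables. Levels per kilobase use the longest coding transcript of GENCODE vM21 within the listed gene. Per the labels' protocol the Input is a portion of the Positive's own homogenate, so same-numbered fractions are paired. As a check, the deviations of 8 of 9 pairs correlated above 0.1 (lowest -0.0277, highest 0.297). The main tests did not use this pairing, and blocking by replicate number was run as an alternative. Across tissues the samples share only a number.

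The 7 genes and all gene lists were chosen with earlier results of these data known. All 7 are reported. Of each other vitamin list the first 2 members analysed, and the 2 with the largest change among those past the threshold, are named, apart from a few left out of the text. Alternatives were DESeq2 1.42.0 (size factors and Wald test), no filter, a filter at the median level, an adjusted p under 0.01, blocking by replicate number, leaving out single libraries and a fit of all 18 libraries. The authors' factors and scaling to endothelial markers were added after seeing the data.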

Additional observations from a re-analysis of the deposited data

Results flagged for a closer look

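The enrichment of a transporter, its log2 fold change of Positive over Input, differed between tissues by an interaction test in 11 cases (edgeR, adjusted p under 0.05 over all genes tested). For choroid minus retina these were Slc52a3 (-3.93, adjusted p = 7.6e-05), Slc19a2 (-1.64, adjusted p = 0.0197), Slc5a6 (-1.39, adjusted p = 0.00222) and Slc23a2 (1.52, adjusted p = 0.000162). For choroid minus brain they were Slc52a3 (-2.84, adjusted p = 3.68e-05), Slc19a2 (-2.14, adjusted p = 0.00123), Slc5a6 (-3.01, adjusted p = 5.35e-07) and Slc23a2 (0.77, adjusted p = 0.00888). For retina minus brain they were Slc19a2 (-0.69, adjusted p = 0.0144), Slc5a6 (-1.82, adjusted p = 8.47e-07) and Slc23a2 (-0.95, adjusted p = 1.79e-05). Those called were 4 of 4 tested in each comparison with choroid and 3 of 7 for retina minus brain. Of all genes, 9.49% were higher and 22.3% lower for choroid minus retina, and 22.4% and 25.7% for choroid minus brain. For retina minus brain the shares were 28.9% and 20.0%. Nothing is read from the number of cases. In choroid, Slc52a3 was listed through the Positive fraction alone and Slc19a2 and Slc5a6 through the Input alone, and in retina Slc52a3 through the Positive fraction alone, so their differences with choroid are no independent evidence of a direction. The Slc19a2 value for retina minus brain was not called in the fit of all 18 libraries (adjusted p = 0.119). The endothelial markers had a median log2 fold change of 2.86 in choroid, 6.41 in retina and 5.24 in brain, and the part of that difference in these values was not tested.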

How the results depend on the processing

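Over the alternatives run, 975 values of single transporters kept their direction and side of the threshold, 19 newly passed it, 41 no longer passed it and 14 changed direction. The filter at the median level tests fewer genes by construction. It called 1820 genes and 1 transporter in choroid, 1951 and 1 in retina, and 5745 and 3 in brain. For enrichment differences it called 1331 and 1 (choroid minus retina), 2048 and 1 (choroid minus brain) and 3484 genes (retina minus brain). For Positive fractions it called 2555 and 1 (Choroid over Retina), 2363 and 0 (Choroid over Brain) and 4960 and 2 (Retina over Brain), and for Inputs 2764 and 1, 2783 and 1, and 4937 and 1 in that order. At an adjusted p under 0.01, retina had 1733 genes and 3 transporters, choroid minus retina 1446 genes, and Retina Input over Brain Input 2 transporters. The fit of all 18 libraries, over 7270 genes, called 2170 genes for retina minus brain, 4638 genes and 2 transporters for Retina over Brain Positive, and 4582 and 2 for the Inputs, and put Slc52a3 at -0.069 for Choroid over Brain Positive. Scaled to endothelial markers, Choroid over Brain Positive had 6485 genes and 4 transporters, Choroid over Retina Positive 4 transporters and Retina over Brain Positive 1. That scaling reversed Slc52a3 (-1.48), Slc19a2 (-1.81) and Slc23a2 (-1.17) for Choroid over Retina, Slc52a3 (-1.35) and Slc23a2 (-1.16) for Choroid over Brain, and Slc52a3 (0.15) and Slc19a2 (0.44) for Retina over Brain. Leaving out 1 library gave 1836 to 3637 genes and 3 to 6 transporters in retina, lowest without Retina Input 2 (2048 genes without Retina Input 1). It gave 2 to 6 transporters for Retina Input over Brain Input, lowest without Retina Input 1, Retina Input 2 or Brain Input 1. It reversed Slc19a3 for retina minus brain (-0.09 without Retina Positive 3, up to 0.756). For Choroid over Brain Positive it reversed Slc52a3 (-0.174 and -0.068 without Choroid Positive 2 and 3, -0.02 without Brain Positive 2, up to 0.263) and Slc19a2 (0.29 without Choroid Positive 3, down to -0.594), and for Choroid over Retina Positive Slc19a2 (-0.13 without Choroid Positive 2, up to 0.699). The fit of all 18 libraries also tests fewer genes than the main fits, and the cause of these changes was not tested.

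With the replicate number as a block, 2998 genes were called in choroid, 3085 in retina and 11054 in brain. Beside the changes given with Slc52a3, Slc19a2 and Slc5a6, it moved Retina Positive over Brain Positive past the threshold for Slc52a3 (-0.58, adjusted p = 0.0485) and Slc19a3 (-0.80, adjusted p = 0.00851), where the numbers pair no samples across tissues, and changed no other transporter call. Choroid Positive held at most 2717264 counts, which limits what can be seen for Slc19a2 and Slc5a6 there.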
